A study of Homo sapiens with 6 samples.

Results

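CALB1, THEMIS, AGR2 and AJAP1 are 4 unrelated human genes that share an uneven level across the libraries of an osmotic stress experiment in U2OS cells. They were chosen by symbol, 4 of the 19940 gene rows in the count tables, because they were expressed in the libraries labelled hypertonic 1 and isotonic 2 and close to silent in those labelled hypertonic 2 and isotonic 1. Their levels in these 4 libraries are therefore a description and carry no test. The choice did not use the pair of rescue libraries.

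U2OS is an osteosarcoma line, and all cells of the experiment carried a stable GFP-DCP1A transgene, kept under G418 selection, which encodes a tagged protein of the mRNA decapping complex. In the rescue group, cells spent 4 h in medium with 300 mM sodium and then 4 h in medium with 150 mM sodium. The hypertonic group was harvested after 4 h at 300 mM sodium, made with concentrated phosphate-buffered saline, and the isotonic group was kept at 150 mM sodium with a matched volume of the same saline at single strength. Each group had 2 libraries of total RNA depleted of ribosomal RNA. No isotonic library from the later rescue time was analysed here, so the return to isotonic medium and the later harvest cannot be told apart. Whether a group's libraries derive from different cultures is not stated in the labels, which mention duplicate sequencing of each sample. P-values thus reflect only how far these libraries lie apart, and that spread may be technical.

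The isotonic and hypertonic libraries did not group by their labels. Total counts were 105991428 and 91973726 in rescue, 101403615 and 103529255 in hypertonic, and 105336183 and 90196278 in isotonic. Over 17343 genes, the log2 ratio of hypertonic 1 to isotonic 1 had an SD of 0.954 and that of hypertonic 2 to isotonic 2 an SD of 0.960, whereas hypertonic 1 differed from isotonic 2 with an SD of 0.194 and hypertonic 2 from isotonic 1 with an SD of 0.183. Rescue 1 and rescue 2 differed with an SD of 0.166. The mean chi-square per gene was 6.15 for hypertonic 1 with isotonic 2, 5.50 for hypertonic 2 with isotonic 1, and 10.3 for rescue 1 with rescue 2, so none of these pairs was within sampling noise and all 6 libraries were kept as separate samples. Whether the labels or files of 1 replicate number were exchanged between hypertonic and isotonic cannot be told from the files used here. If they were, each hypertonic or isotonic value of that number, the means by label and the rescue comparisons below would stand under the wrong label. Each library is named below as it is labelled, and no direction is given for hypertonic against isotonic without its replicate number.

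CALB1 encodes calbindin-D28k, a cytosolic calcium buffer with EF-hand domains that is abundant in some neurons and in the calcium-transporting epithelium of the kidney. THEMIS encodes an adaptor of the T cell lineage that binds GRB2 and acts in thymocyte selection. AGR2 encodes a protein disulfide isomerase of the endoplasmic reticulum that is made by mucin-secreting epithelia. AJAP1 encodes a transmembrane protein of adherens junctions that binds basigin. None of them is a marker of the bone lineage. When sodium rises, cells shrink and induce transporters and enzymes for organic osmolytes, in large part through the transcription factor NFAT5, which binds a motif with the core TGGAAA.

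The sequences upstream of the starts of THEMIS, AGR2 and AJAP1 are shown because these genes have like profiles across the libraries, and a window of CALB1 was not analysed here. They are the 250 bases before the RefSeq start (GRCh38.p14), written 5′ to 3′ on the strand of the gene, for THEMIS at chr6:127918596-127918845, AGR2 at chr7:16805000-16805249, AJAP1 at chr1:4654359-4654608 and AGR3, the neighbour and paralogue of AGR2, at chr7:16881984-16882233. For THEMIS, RefSeq lists 3 starts and the outermost was taken. Capitals mark every match to the motifs searched.
THEMIS: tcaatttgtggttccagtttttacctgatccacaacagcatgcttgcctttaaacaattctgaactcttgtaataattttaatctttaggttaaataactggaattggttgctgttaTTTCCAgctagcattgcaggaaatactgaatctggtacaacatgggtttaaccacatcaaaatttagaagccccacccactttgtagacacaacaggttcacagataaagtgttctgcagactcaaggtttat
AGR2: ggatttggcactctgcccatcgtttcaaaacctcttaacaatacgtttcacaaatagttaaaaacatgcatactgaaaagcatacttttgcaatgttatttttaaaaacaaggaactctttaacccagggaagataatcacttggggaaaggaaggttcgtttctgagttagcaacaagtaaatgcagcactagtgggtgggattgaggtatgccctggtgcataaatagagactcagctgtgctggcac
AJAP1: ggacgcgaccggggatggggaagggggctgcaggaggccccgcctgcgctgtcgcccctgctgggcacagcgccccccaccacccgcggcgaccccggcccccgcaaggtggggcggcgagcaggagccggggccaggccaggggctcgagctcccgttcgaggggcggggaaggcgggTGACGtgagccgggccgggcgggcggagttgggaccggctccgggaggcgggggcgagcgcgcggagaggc
AGR3: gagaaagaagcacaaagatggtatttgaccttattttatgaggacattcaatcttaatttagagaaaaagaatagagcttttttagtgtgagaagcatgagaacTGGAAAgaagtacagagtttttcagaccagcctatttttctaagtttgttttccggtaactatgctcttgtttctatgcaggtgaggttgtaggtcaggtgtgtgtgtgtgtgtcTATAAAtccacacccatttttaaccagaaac

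The motifs searched were TGGAAA, the core bound by NFAT5, on both strands, TGANTCA, the AP-1 site, on both strands, TGACG, the core of the cAMP response element, on both strands, and TATAAA on the strand of the gene. THEMIS held TGGAAA once, on the opposite strand (printed as TTTCCA), 133 to 128 bases before the start. AJAP1 held TGACG once, 71 to 67 bases before the start. AGR3 held TGGAAA 146 to 141 bases and TATAAA 31 to 26 bases before the start, and AGR2 held no match. Among 35116 promoter windows of the same length, 18.0% held TGGAAA, 6.57% TGANTCA, 21.2% TGACG and 6.8% TATAAA. No motif was found in all of the windows shown. Their base composition also differed: G and C made up 80.8% of the AJAP1 window, 40.4% of that of AGR2, 36.8% of that of THEMIS and 36.4% of that of AGR3, against a median of 58.0% over all windows.

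The genes lie on different chromosomes (GRCh38, GENCODE release 29). CALB1 (ENSG00000104327.7) spans chromosome 8 from 90058608 to 90095475 on the minus strand. THEMIS (ENSG00000172673.10) spans chromosome 6 from 127708072 to 127918631 on the minus strand, and 1 processed pseudogene, MRPS17P5, lies inside it. AGR2 (ENSG00000106541.11) spans chromosome 7 from 16791811 to 16833433 on the minus strand, and AJAP1 (ENSG00000196581.10) spans chromosome 1 from 4654732 to 4792534 on the plus strand. The RefSeq start used above for AGR2 lies inside its GENCODE span. No other gene of the count tables overlaps any of the 4. The sources used here do not say whether reads were counted in exons only or over whole genes, nor how strand was treated, so reads from introns, from the pseudogene and from the opposite strand may be included.

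Levels below are in CPM, the count scaled by the library total. CALB1 had 13.7 and 15.5 CPM in rescue 1 and 2, 49.5 and 0.222 CPM in hypertonic 1 and 2, and 0.180 and 48.3 CPM in isotonic 1 and 2. The low values rest on 23 counts in hypertonic 2 and 19 counts in isotonic 1, the high values on 5015 and 4353 counts. Both rescue libraries therefore lay between the low and the high libraries, and the levels of hypertonic and of isotonic each ran over the whole range.

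THEMIS had 2.65 and 2.63 CPM in rescue, 19.7 and 0.0773 CPM in hypertonic, and 0.0190 and 20.7 CPM in isotonic. Isotonic 1 held 2 counts, fewer than the floor of 3 counts, which corresponds to between 0.0283 and 0.0333 CPM in these libraries, and hypertonic 2 held 8 counts. Its 95% Poisson interval ran from 0.0334 to 0.152 CPM in hypertonic 2 and from 0.0023 to 0.0686 CPM in isotonic 1. Those intervals overlap, and like all intervals here they cover counting error only.

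AGR2 had 2.51 and 3.22 CPM in rescue, 20.6 and 0.0580 CPM in hypertonic, and 0.0949 and 23.4 CPM in isotonic. Hypertonic 2 held 6 counts and isotonic 1 held 10. AJAP1 had 5.29 and 4.79 CPM in rescue, 13.8 and 0.261 CPM in hypertonic, and 0.133 and 13.3 CPM in isotonic, with 27 counts in hypertonic 2 and 14 in isotonic 1. For each of the 4 genes the order was thus the same: hypertonic 2 and isotonic 1 at the bottom, the rescue libraries in the middle, and hypertonic 1 and isotonic 2 at the top. In bulk RNA, fewer expressing cells and less RNA per cell cannot be told apart.

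**Figure D1:**
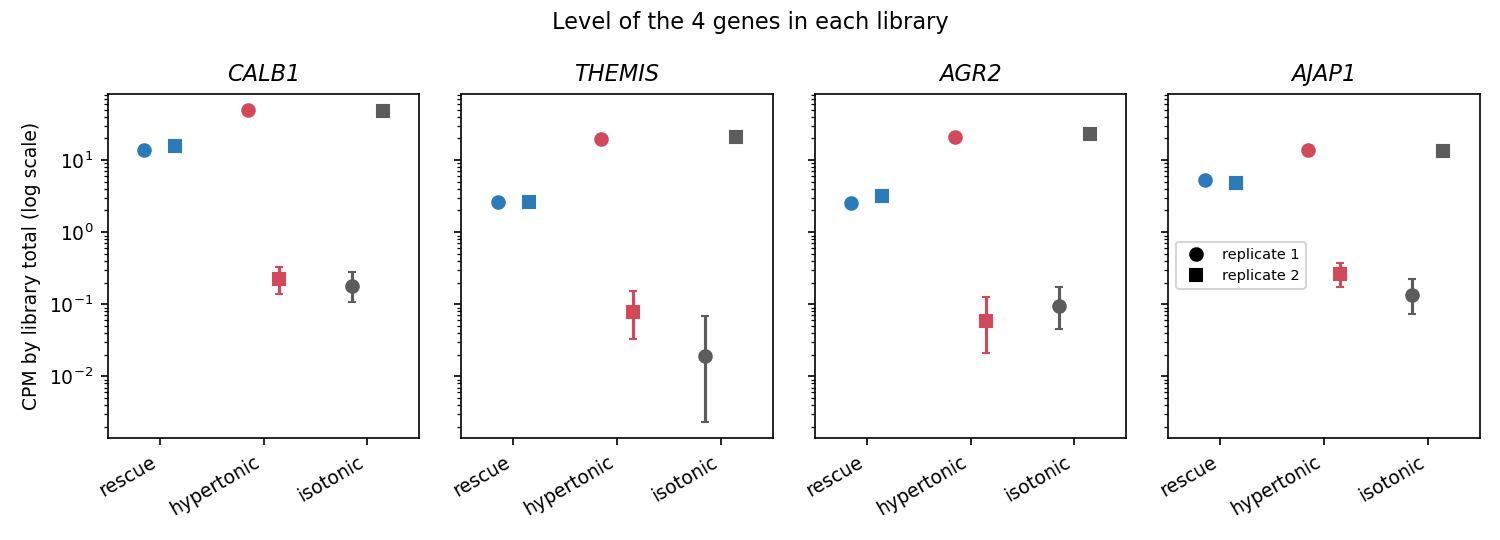
Level of CALB1, THEMIS, AGR2 and AJAP1 in each library, in CPM by library total on a log axis, with rescue, hypertonic and isotonic from left to right, circles for replicate 1 and squares for replicate 2. Bars are 95% Poisson intervals of the counts, hidden by the symbol where narrow. In each panel both rescue points lie between a low pair (hypertonic 2, isotonic 1) and a high pair (hypertonic 1, isotonic 2).

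Means by label do not show this order. CALB1 averaged 14.6 ± 1.21 CPM in rescue, 24.8 ± 34.8 CPM in hypertonic and 24.2 ± 34.0 CPM in isotonic (SD, n = 2 each). THEMIS averaged 2.64 ± 0.0141 CPM in rescue, 9.88 ± 13.9 CPM in hypertonic and 10.3 ± 14.6 CPM in isotonic (SD, n = 2 each). For AGR2 the means were 2.86 ± 0.501, 10.3 ± 14.5 and 11.7 ± 16.5 CPM, and for AJAP1 5.04 ± 0.352, 7.05 ± 9.61 and 6.71 ± 9.30 CPM, in the same order of groups. In hypertonic and in isotonic the SD of every gene exceeded its mean.

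The order of the 4 genes by level depends on the length they are set against. Per kilobase of merged exons of all annotated transcripts, hypertonic 1 held 7.25 CPM per kb of AGR2 (2.85 kb of exons), 6.93 of CALB1 (7.14 kb), 4.57 of THEMIS (4.31 kb) and 1.12 of AJAP1 (12.4 kb). With exons of the basic transcript set alone, a length added after the values were seen, CALB1 led with 18.7 CPM per kb, followed by AGR2 with 10.1, THEMIS with 4.57 and AJAP1 with 1.12. Per kilobase of gene span, the values in hypertonic 1 were 1.34 CPM per kb for CALB1, 0.495 for AGR2, 0.1005 for AJAP1 and 0.0935 for THEMIS. On the first of these scales the rescue levels were 1.93 and 2.17 CPM per kb for CALB1, 0.882 and 1.13 for AGR2, 0.615 and 0.611 for THEMIS, and 0.427 and 0.387 for AJAP1. CALB1 led and AJAP1 was last in both rescue libraries on either exon scale.

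Within replicate number 1, all 4 genes were higher in the library labelled hypertonic, and within number 2 all 4 were lower in it. CALB1 was 274-fold higher in hypertonic 1 than in isotonic 1 (95% interval 175 to 456) and 217-fold lower in hypertonic 2 than in isotonic 2 (145 to 343). AGR2 was 217-fold higher in number 1 (118 to 454) and 403-fold lower in number 2 (185 to 1100.1). AJAP1 was 104-fold higher in number 1 (61.9 to 191) and 50.9-fold lower in number 2 (34.8 to 77.6).

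THEMIS was 268-fold lower in hypertonic 2 than in isotonic 2 (136 to 621). Its ratio in number 1 was 1037, but with 2 counts in isotonic 1 the interval ran from 287 to 8566. These ratios chose the genes. On log2(CPM + 0.1), the ratio of hypertonic 1 to isotonic 1 was 7.47 for CALB1, 7.38 for THEMIS and 6.73 for AGR2, the highest 3 of 17343 genes with at least 100 summed counts, and 5.90 for AJAP1, in rank 8. In number 2 it was -7.23, -6.87, -7.22 and -5.21, in ranks 1, 3, 2 and 13 from the lowest. A change of 2-fold or more on this scale was seen in 10.0% of 18162 genes upward and in 12.6% downward in number 1, and in 12.0% upward and in 10.5% downward in number 2.

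The libraries that resembled each other across all genes also had near-equal levels of these 4. Hypertonic 1 over isotonic 2 gave 1.02 for CALB1 (0.984 to 1.07), 0.952 for THEMIS (0.893 to 1.01) and 1.04 for AJAP1 (0.964 to 1.13), intervals that include equality. AGR2 was the exception at 0.882 (0.830 to 0.938). Between the low libraries, hypertonic 2 over isotonic 1 gave 1.23 for CALB1 (0.642 to 2.39), 0.610 for AGR2 (0.182 to 1.85) and 1.96 for AJAP1 (0.994 to 4.05), and 4.07 for THEMIS (0.812 to 39.3), with every interval including equality.

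The rescue libraries are the only ones that the choice of genes did not use. Both held all 4 genes well above the low libraries. The choice of genes fixed their levels in those low libraries to be close to silent, so high ratios to them carry no test. A rise in rescue was also common elsewhere. Of 17343 genes, 4324 were at least 2-fold higher in rescue 1 than in hypertonic 2, and 622 were at least 2-fold lower. Against isotonic 1 the counts were 4313 and 662. For rescue 2 they were 4376 and 642 against hypertonic 2, and 4336 and 667 against isotonic 1. CALB1 was 61.9-fold and 69.6-fold higher in rescue 1 and 2 than in hypertonic 2, and 76.2-fold and 85.7-fold higher than in isotonic 1. AGR2 was 43.3-fold and 55.5-fold higher than in hypertonic 2 and 26.4-fold and 33.9-fold higher than in isotonic 1. AJAP1 was 20.3-fold and 18.4-fold higher than in hypertonic 2 and 39.8-fold and 36.1-fold higher than in isotonic 1. For THEMIS the ratios to hypertonic 2 were 34.3 and 34.1, and those to the 2 counts of isotonic 1 were 139.6 (38.3 to 1159) and 138.6 (38.0 to 1151).

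Set against the high libraries, the rescue levels of THEMIS and AGR2 were lower than those of CALB1 and AJAP1. THEMIS in rescue 1 and 2 reached 13.5% (11.8 to 15.3) and 13.4% (11.6 to 15.3) of its level in hypertonic 1, and AGR2 reached 12.2% (10.7 to 13.8) and 15.6% (13.8 to 17.6). CALB1 reached 27.8% (26.2 to 29.5) and 31.3% (29.5 to 33.2), and AJAP1 reached 38.2% (34.6 to 42.2) and 34.6% (31.0 to 38.6). The intervals of THEMIS and AGR2 lie below those of CALB1 and AJAP1 in both rescue libraries. Those of CALB1 and AJAP1 were also apart in rescue 1 and overlapped in rescue 2. All these intervals cover counting error only, and the choice of genes used the high libraries. Against isotonic 2 the values were 12.8% and 12.7% for THEMIS, 10.7% and 13.8% for AGR2, 28.5% and 32.0% for CALB1, and 39.8% and 36.1% for AJAP1. Rescue 1 over rescue 2 was 1.01 for THEMIS (0.845 to 1.20) and 1.10 for AJAP1 (0.973 to 1.25), which include equality, and 0.889 for CALB1 (0.826 to 0.957) and 0.780 for AGR2 (0.658 to 0.923), which do not.

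**Figure D2:**
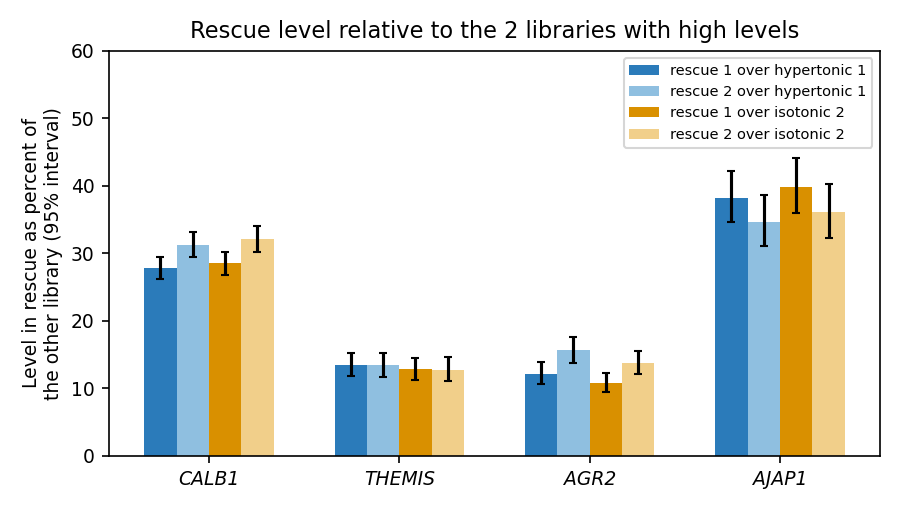
Level in each rescue library as a percent of the level in hypertonic 1 (blue) and in isotonic 2 (orange), darker for rescue 1 and lighter for rescue 2, with 95% intervals that cover counting error only. THEMIS and AGR2 stand between 10.7% and 15.6%, CALB1 between 27.8% and 32.0%, and AJAP1 between 34.6% and 39.8%.

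All 4 genes passed the filter on low counts, and 18208 genes entered the edgeR quasi-likelihood test with all 6 libraries. With the groups as labelled, 0 of the 4 genes passed an adjusted p of 0.05 in rescue against isotonic, where 23.1% of all genes passed (9.61% higher, 13.5% lower), and 0 of 4 in rescue against hypertonic, where 23.6% passed (9.86% higher, 13.8% lower). Unadjusted p-values of the 4 genes were all above 0.05, and DESeq2 and limma voom also called 0 of 4 in both comparisons. The calls over all genes needed every library of the groups compared: without either rescue or either isotonic library, rescue against isotonic gave 0 calls, and without either rescue or either hypertonic library, rescue against hypertonic gave 0. The fitted log2 change of CALB1 was -1.10 (SE 2.77, edgeR adjusted p = 0.804) in rescue against isotonic and -1.14 (SE 2.78, adjusted p = 0.795) in rescue against hypertonic. For THEMIS the values were -2.34 (SE 3.02, edgeR adjusted p = 0.617) and -2.28 (SE 3.02, adjusted p = 0.624). For AGR2 they were -2.40 (SE 2.92, edgeR adjusted p = 0.594) and -2.23 (SE 2.90, adjusted p = 0.617), and for AJAP1 -0.78 (SE 2.35, edgeR adjusted p = 0.838) and -0.85 (SE 2.35, adjusted p = 0.819). With limma voom the same changes were positive, from 0.85 to 2.23 against isotonic and from 0.88 to 1.92 against hypertonic. The edgeR standard errors of 2.35 to 3.02 log2 units hold the difference between replicate numbers 1 and 2, which the choice of genes fixed to be large. The result of 0 of 4 was therefore largely set by that choice and carries no test.

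Hypertonic against isotonic gave 0 calls in edgeR and in limma voom over all 18208 genes (0.0%), with 52 genes at an unadjusted p under 0.05 in edgeR and 1 gene called by DESeq2. For the 4 chosen genes this comparison is no test.

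Taken one replicate number at a time, the rescue values lay between those of the 2 labels. These edgeR fits used both rescue libraries with 1 hypertonic and 1 isotonic library, and assume that a lone library varies like the rescue libraries. With number 1, all 4 genes were higher in rescue than in isotonic (log2 change of 6.11 for CALB1, 6.81 for THEMIS, 4.67 for AGR2 and 5.01 for AJAP1) and lower in rescue than in hypertonic (-2.14, -3.28, -3.23 and -1.83). With number 2, all 4 were lower in rescue than in isotonic (-2.10, -3.34, -3.41 and -1.77) and higher than in hypertonic (5.80, 4.84, 5.36 and 4.04). The value of THEMIS against isotonic 1 rests on 2 counts there and depends on the prior count of the fit. The lone isotonic and hypertonic values were part of the choice of genes, so these changes are a description and carry no test. Each of these fits called 4 of 4, and most of all genes. In rescue against isotonic 79.1% of genes passed with number 1 (40.5% higher, 38.6% lower) and 80.8% with number 2 (40.7% higher, 40.1% lower). In rescue against hypertonic 81.4% passed with number 1 (41.0% higher, 40.5% lower) and 79.1% with number 2 (40.5% higher, 38.6% lower). Hypertonic against isotonic, which chose the genes, also called 4 of 4 in each, with 64.2% of genes called with number 1 (31.6% higher, 32.6% lower) and 63.9% with number 2 (32.9% higher, 31.0% lower). Nothing is read from the counts of 4 of 4.

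Genes with levels as far apart were counted by CPM limits that do not measure shape. By limits of under 0.5 CPM in hypertonic 2 and isotonic 1 and at least 10 CPM in hypertonic 1 and isotonic 2, 10 of 19874 genes (0.0503%) qualified, and the opposite pattern was met by 0 genes. Besides the 4 they were TTLL8, of the tubulin glycylase family, HHLA2, of the B7 family of immune regulators, DSCAML1, a neuronal adhesion molecule, FXYD2, the gamma subunit of the sodium pump, FNDC7 and SPATA16. In all 10 both rescue libraries lay between the low and the high libraries. The limits leave a gap of at least 0.5 to 10 CPM for rescue values to fall into. The share of all genes with rescue in between was not counted, so this is a description and carries no test. Nearest to the limit of 10 CPM were SPATA16, with 11.7 CPM in hypertonic 1, and FXYD2, with 11.2 CPM in isotonic 2, and nearest to the limit of 0.5 CPM was HHLA2, with 0.425 CPM in hypertonic 2. Under wider limits of 1 and 5 CPM, 58 genes qualified, 52 of them with both rescue values in between and 3 with both above every other library, while 7 genes met the opposite pattern.

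The other 6 genes had larger shares in rescue than THEMIS and AGR2. Rescue 1 and 2 stood at 23.4% and 25.9% of hypertonic 1 for SPATA16, at 28.3% and 24.3% for FNDC7, at 40.6% and 41.4% for TTLL8, at 51.0% and 46.8% for FXYD2, at 50.2% and 59.9% for HHLA2, and at 53.2% and 59.7% for DSCAML1.

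**Figure D3:**
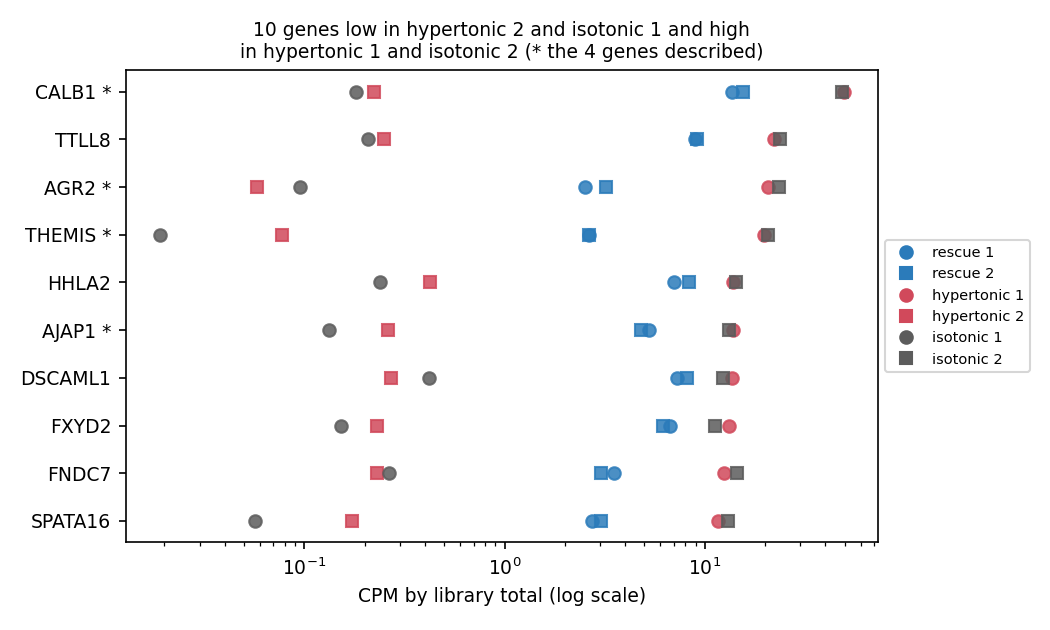
CPM by library total on a log axis for the 10 genes under 0.5 CPM in hypertonic 2 and isotonic 1 and at least 10 CPM in hypertonic 1 and isotonic 2, with the 4 genes described marked by an asterisk. Blue symbols are rescue, red hypertonic and grey isotonic, circles replicate 1 and squares replicate 2. All blue symbols lie between the low pair and the high pair, and those of THEMIS and AGR2 lie farthest below the high pair.

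Likeness of profiles was measured as the root mean square difference of centred log2(CPM + 0.1) over the 6 libraries, which includes the libraries used for the choice. THEMIS and AGR2 were each other's nearest gene, with a difference of 0.286 log2 units. The next for THEMIS were SPATA16 (0.512), CALB1 (0.614), TTLL8 (0.655) and AGR3 (0.673), and for AGR2 SPATA16 (0.560), AGR3 (0.604), TTLL8 (0.667) and CALB1 (0.678). CALB1 was nearest to TTLL8 (0.512), followed by THEMIS, AGR2, SPATA16 (0.788) and AJAP1 (0.793).

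AJAP1 was nearest to EREG (0.107), the gene of the growth factor epiregulin, and then to FXYD2 (0.228), HHLA2 (0.266), SPATA16 (0.293) and TTLL8 (0.322). EREG had 20.05 and 18.9 CPM in rescue, 48.7 and 1.35 CPM in hypertonic, and 0.930 and 49.4 CPM in isotonic. The same libraries were low, in between and high as for AJAP1, at a higher level and with smaller ratios of high to low. With a pseudocount of 1 CPM the nearest genes changed, and of the 5 listed 1 was shared for CALB1, 1 for THEMIS, 1 for AGR2 and 0 for AJAP1.

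The nearest genes in the tables were examined on both sides of each gene. At the AGR2 locus, AGR3 lies 26.0 kb beyond the 5′ end of AGR2 on the same strand and had the same profile at a lower level: 0.660 and 0.935 CPM in rescue, 5.12 and 0.0193 CPM in hypertonic, and 0.00 and 5.40 CPM in isotonic. With 519 counts in hypertonic 1 and 0 in isotonic 1 it was at least 179.7-fold higher, taking 3 counts for isotonic 1, and with 2 counts in hypertonic 2 it was 279-fold lower there than in isotonic 2 (77.0 to 2314). Rescue 1 and 2 held 12.9% (9.91 to 16.6) and 18.3% (14.4 to 23.0) of its level in hypertonic 1, close to the shares of AGR2. AGR2 and AGR3 are paralogues, and how reads matching both were counted is not given in the sources used here.

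At the other neighbours of AGR2 the ratios were smaller. TSPAN13, a tetraspanin 7.27 kb beyond the 3′ end of AGR2 on the opposite strand, had 19.3 and 21.4 CPM in rescue, 29.5 and 8.64 CPM in hypertonic, and 9.84 and 31.1 CPM in isotonic. AHR, the aryl hydrocarbon receptor, 82.9 kb beyond the 5′ end, had 66.0 and 72.2 CPM in rescue, 35.8 and 16.4 CPM in hypertonic, and 17.2 and 43.1 CPM in isotonic, so its rescue levels lay above all others. BZW2, 85.3 kb beyond the 3′ end, had 100.2 and 103 CPM in rescue, 160.4 and 152 CPM in hypertonic, and 150.1 and 171 CPM in isotonic.

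Around CALB1 the nearest genes moved the other way. DECR1, a mitochondrial fatty acid oxidation enzyme 6.52 kb beyond its 3′ end on the opposite strand, had 22.9 and 24.9 CPM in rescue, 13.3 and 25.7 CPM in hypertonic, and 26.2 and 14.6 CPM in isotonic. NBN, a DNA repair gene 55.4 kb away on the same strand, had 85.8 and 86.7 CPM in rescue, 61.5 and 116.8 CPM in hypertonic, and 115.1 and 61.2 CPM in isotonic. On the 5′ side TMEM64 and NECAB1, 526.5 and 696 kb away, were 1.62-fold and 1.41-fold higher in hypertonic 1 than in isotonic 1, with ratios of 0.614 and 0.622 in number 2.

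PTPRK, a receptor tyrosine phosphatase 50.1 kb beyond the 5′ end of THEMIS on the same strand, had 185 and 195 CPM in rescue, 500.0 and 229 CPM in hypertonic, and 234 and 512 CPM in isotonic. It thus shared the direction of THEMIS at a far smaller size, with a ratio of 2.13 in number 1 and 0.447 in number 2, and its rescue levels lay below all others. On the 3′ side of THEMIS, C6orf58 had 4.88 and 5.35 CPM in rescue, 0.444 and 0.290 CPM in hypertonic, and 0.304 and 0.310 CPM in isotonic, and SOGA3 had 9.03 and 9.37 CPM in rescue against 4.00 to 4.89 CPM elsewhere. The fourth neighbour, LAMA2, was 1.40-fold higher in number 1, with a ratio of 0.685 in number 2.

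AJAP1 stands alone: its nearest genes in the tables are 754 kb away or farther. C1orf174, DFFB and NPHP4 had hypertonic to isotonic ratios of 0.869, 0.440 and 0.759 in number 1 and 1.19, 1.41 and 1.40 in number 2, and KCNAB2 had 1.28 and 0.772. Of the 16 neighbours of the 4 genes, AGR3 alone came near the size of change of its member.

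**Figure D4:**
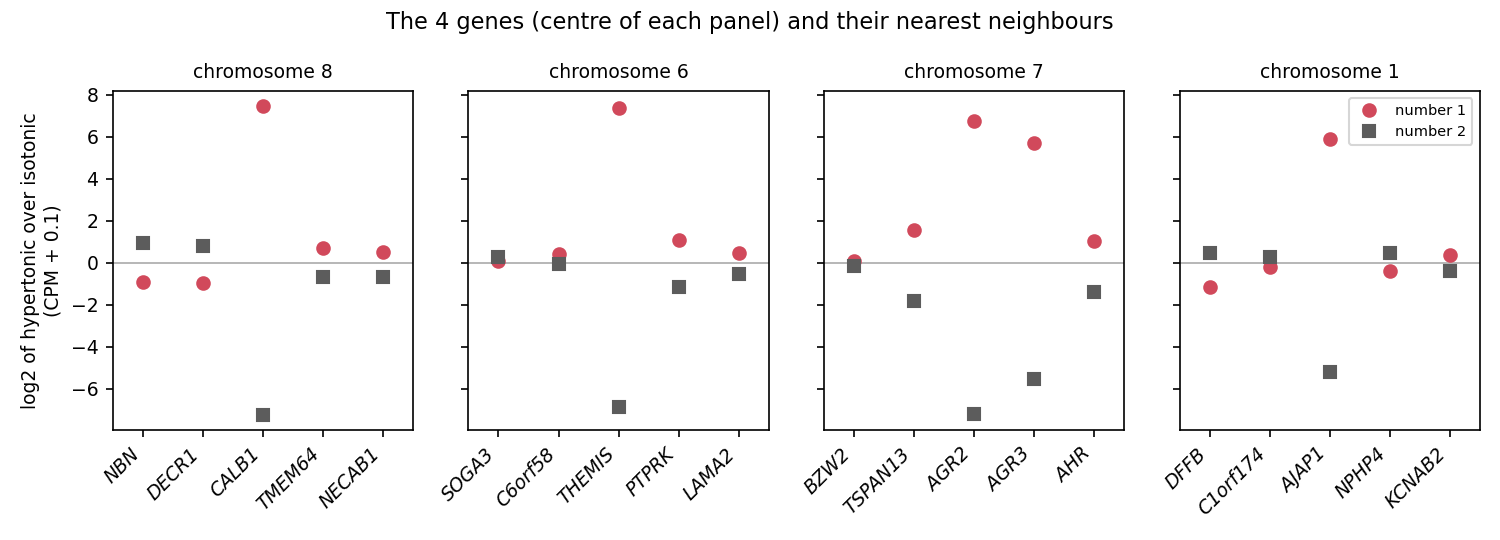
Log2 ratio of hypertonic to isotonic (CPM + 0.1) for each gene and its nearest neighbours in chromosome order, red circles for replicate number 1 and grey squares for number 2. CALB1, THEMIS, AGR2 and AJAP1 stand at 5.90 or more in number 1 and at -5.21 or less in number 2, AGR3 stands at 5.71 and -5.53, and the other neighbours lie between -1.84 and 1.58.

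The 6 lists of related genes held 101 tested genes. Of these, the ratio of hypertonic 1 to isotonic 1 was 2-fold or more upward in 11 and downward in 5, and that of hypertonic 2 to isotonic 2 upward in 5 and downward in 12. Over all 18162 genes 1824 were higher and 2285 lower in number 1, and 2187 higher and 1900 lower in number 2. The median log2 ratio of all genes was -0.15 in number 1 and 0.14 in number 2. The medians of the lists below are on the same scale, number 1 first.

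The 20 EF-hand calcium-binding proteins related to CALB1 had a median of 0.29 in number 1 and -0.30 in number 2. HPCAL1, a neuronal calcium sensor relative, had the largest ratio of the list in number 1, with 111 and 114 CPM in rescue, 427 and 35.3 CPM in hypertonic, and 35.6 and 460.4 CPM in isotonic. The calmodulin genes CALM2 and CALM3, the most abundant of the list, were near level across the isotonic and hypertonic libraries and fell in rescue against isotonic, by 0.82 (SE 0.097, edgeR adjusted p = 0.0115) and 0.60 (SE 0.098, edgeR adjusted p = 0.0197) on the log2 scale. In that comparison 3 of the 20 genes rose and 4 fell, where 9.61% of all genes rose and 13.5% fell. In rescue against hypertonic 3 rose and 5 fell, where 9.86% of all genes rose and 13.8% fell. PPP3R1, the regulatory subunit of calcineurin, had 109 and 116 CPM in rescue, 272 and 152 CPM in hypertonic, and 149 and 289 CPM in isotonic. NECAB2 had 2.87 and 3.16 CPM in rescue, 1.60 and 3.13 CPM in hypertonic, and 3.68 and 1.82 CPM in isotonic.

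Genes of epithelial calcium transport and the vitamin D response, 10 of 11 tested, had a median of -0.05 in both numbers. CYP24A1, the vitamin D hydroxylase, went against CALB1: it had 69.4 and 70.0 CPM in rescue, 17.5 and 51.2 CPM in hypertonic, and 52.8 and 18.8 CPM in isotonic. SLC8A3, a sodium-calcium exchanger, had 12.7 and 13.5 CPM in rescue, 5.06 and 0.889 CPM in hypertonic, and 1.04 and 5.99 CPM in isotonic. The plasma membrane calcium pumps ATP2B1 and ATP2B4 fell in rescue against isotonic, by 1.13 (SE 0.216, edgeR adjusted p = 0.0293) and 0.55 (SE 0.095, edgeR adjusted p = 0.0228) on the log2 scale. Another pump gene of the list, ATP2B2, named after its values were seen, had 20.5 and 20.1 CPM in rescue, 2.59 and 2.60 CPM in hypertonic, and 3.17 and 2.65 CPM in isotonic, and it rose in rescue against isotonic by 2.51 on the log2 scale (edgeR adjusted p = 0.00834). In all, 2 of the 10 tested genes rose and 3 fell in each rescue comparison, beside 9.61% and 13.5% of all genes against isotonic and 9.86% and 13.8% against hypertonic.

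For THEMIS, 21 of 22 genes of T cell receptor signalling were tested, with a median of 0.08 in number 1 and -0.14 in number 2. FYN, a kinase that acts beside LCK, shared the direction of THEMIS: it had 47.6 and 52.3 CPM in rescue, 75.2 and 18.9 CPM in hypertonic, and 19.2 and 77.6 CPM in isotonic. GRAP2 went the other way, with 6.04 and 6.05 CPM in rescue, 0.651 and 2.38 CPM in hypertonic, and 2.13 and 0.665 CPM in isotonic. GRB2, the partner of THEMIS, had 111 and 114 CPM in rescue and 104 to 119 CPM in the other libraries. In rescue 7 of the 21 genes rose and 2 fell against isotonic, beside 9.61% and 13.5% of all genes, and 7 rose and 2 fell against hypertonic, beside 9.86% and 13.8%. Those that fell were PTPN11, a phosphatase bound by THEMIS, by 1.30 (SE 0.128, edgeR adjusted p = 0.00948), and PLCG1, by 0.60 (SE 0.094, edgeR adjusted p = 0.0187) on the log2 scale, both against isotonic. Median log2 changes of the list were 1.06 and 1.59, where those of all genes were -0.02 in both comparisons.

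The 19 tested members of the protein disulfide isomerase family, apart from AGR2 itself, had medians of -0.05 and 0.09. AGR3 and TXNDC16 were the only ones 2-fold or more apart in number 1, TXNDC16 with 60.4 and 65.3 CPM in rescue, 30.1 and 14.9 CPM in hypertonic, and 14.6 and 29.5 CPM in isotonic. P4HB, the most abundant, had 532 and 497 CPM in rescue, 554 and 470.2 CPM in hypertonic, and 468 and 534 CPM in isotonic. In both rescue comparisons 1 of the 19 members rose and 4 fell, beside 9.61% and 13.5% of all genes against isotonic and 9.86% and 13.8% against hypertonic. The riser, ERP27, was picked out after its values were seen, with 1.59 and 1.88 CPM in rescue against 0.019 to 0.118 CPM elsewhere.

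The 16 genes of mucous secretion and of AGR2 regulation had medians of -0.09 and -0.17. MUC5AC, a secreted mucin, had 1.00 and 0.946 CPM in rescue, 1.14 and 0.155 CPM in hypertonic, and 0.133 and 1.18 CPM in isotonic. XBP1, a transcription factor of the unfolded protein response, went against AGR2, with 57.6 and 54.1 CPM in rescue, 29.0 and 70.2 CPM in hypertonic, and 69.7 and 30.5 CPM in isotonic. ESR1, the estrogen receptor that induces AGR2 in breast cells, rose in rescue against isotonic by 1.17 on the log2 scale (SE 0.231, edgeR adjusted p = 0.0301) and was the only one of the 16 genes called there, while 2 rose and 0 fell against hypertonic. Over all genes 9.61% rose and 13.5% fell against isotonic, and 9.86% rose and 13.8% fell against hypertonic.

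Among 15 adherens junction genes 0 were 2-fold apart in number 1 or in number 2, with medians of 0.22 and -0.11. BSG, which encodes basigin, had 203 and 194 CPM in rescue, 181 and 157 CPM in hypertonic, and 155 and 169.7 CPM in isotonic. NECTIN1 had 83.5 and 82.4 CPM in rescue, 87.6 and 49.5 CPM in hypertonic, and 49.4 and 87.5 CPM in isotonic. Against isotonic 2 of the 15 genes rose and 2 fell in rescue, beside 9.61% and 13.5% of all genes, and against hypertonic 2 rose and 3 fell, beside 9.86% and 13.8%.

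**Figure D5:**
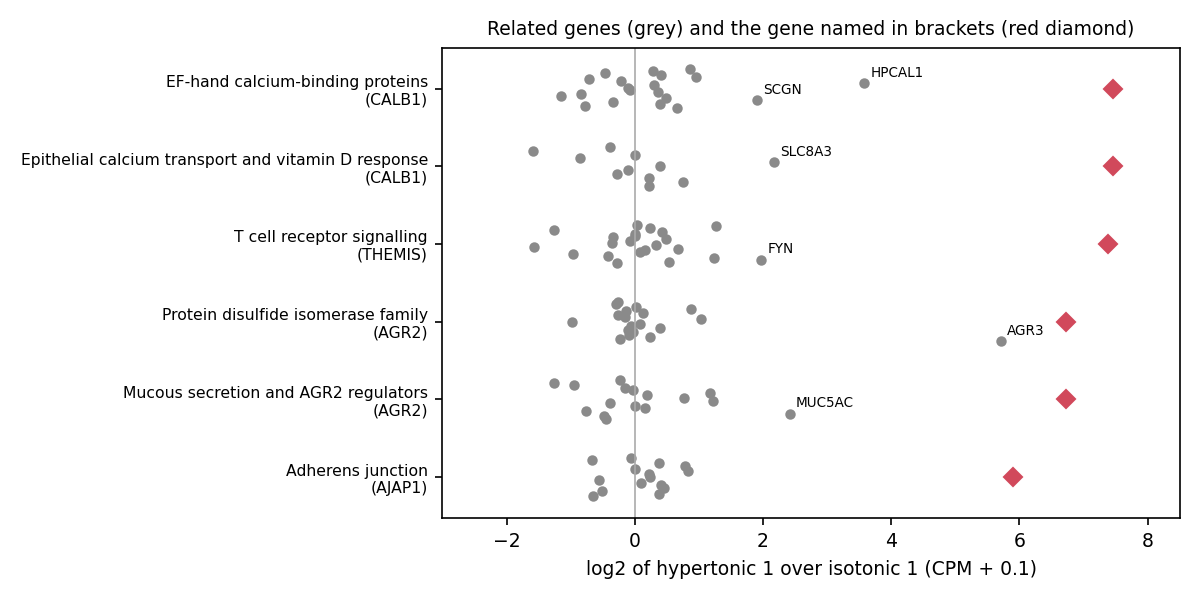
Log2 ratio of hypertonic 1 to isotonic 1 (CPM + 0.1) for the related genes of each list (grey points) and for the gene each list belongs to (red diamond), with the most extreme genes named. Apart from AGR3 at 5.71 and HPCAL1 at 3.58, the grey points lie between -1.59 and 2.42.

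The cells were checked against markers of their label and of the tissues where the 4 genes are usually found. Bone lineage genes summed to 1704 and 1610 CPM in rescue, 1677 and 1978 CPM in hypertonic, and 2002 and 1574 CPM in isotonic. Most of it was COL1A1 and SPARC, while COL1A2 was at 0.174 CPM or less and IBSP at 0.170 CPM or less in every library. RUNX2, the transcription factor of the osteoblast lineage, had 62.8 and 68.6 CPM in rescue, 17.2 and 76.1 CPM in hypertonic, and 77.7 and 17.6 CPM in isotonic. ALPL, an alkaline phosphatase, had 2.82 and 2.74 CPM in rescue, 0.986 and 1.87 CPM in hypertonic, and 2.20 and 0.732 CPM in isotonic. Both were lower in hypertonic 1 and isotonic 2, where the 4 genes were high. They were the only 2 of the 9 genes at least 2-fold apart in number 1 or in number 2. Over all genes 12.6% were that much lower in number 1 and 12.0% that much higher in number 2. BGLAP went the other way, with 0.809 and 0.609 CPM in hypertonic and 0.513 and 1.09 CPM in isotonic. SP7 did so too, with 0.256 and 0.184 CPM in hypertonic and 0.237 and 0.344 CPM in isotonic. The part of these genes in the result was not tested. Markers of T cells, 14 genes, summed to 25.7 and 25.6 CPM in rescue, 7.04 and 6.12 CPM in hypertonic, and 6.67 and 7.88 CPM in isotonic. Of the CD3 genes, CD3E had 0.123 and 0.141 CPM in rescue and 0 counts in the other 4 libraries. CD3G had 0 counts in all but rescue 1. CD3D had 1.54 and 1.41 CPM in rescue and 0.0986 to 0.155 CPM elsewhere. In each rescue comparison 3 of the 12 tested markers rose (CD3D, CD5 and LCK) and 0 fell. Over all genes 9.61% rose and 13.5% fell against isotonic, and 9.86% rose and 13.8% fell against hypertonic. In number 1 the ratio of hypertonic to isotonic was 2-fold or more upward for 3 of these 12 markers and downward for 2. In number 2 it was upward for 0 and downward for 3. Among all genes 10.0% were that much higher and 12.6% lower in number 1, and 12.0% and 10.5% in number 2. The part of these markers in the THEMIS result was not tested.

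Markers of secretory epithelium, 12 genes, summed to 10.4 and 10.8 CPM in rescue, 7.54 and 3.21 CPM in hypertonic, and 2.99 and 7.74 CPM in isotonic. The sum was lower in hypertonic 2 and isotonic 1, as AGR2 was, by a smaller factor. Of the 10 tested genes, 3 were 2-fold higher and 0 lower in number 1, and 1 higher and 4 lower in number 2. Among all genes 10.0% were that much higher and 12.6% lower in number 1, and 12.0% and 10.5% in number 2. In rescue against isotonic 0 of the 10 rose and 0 fell, where 9.61% of all genes rose and 13.5% fell. In rescue against hypertonic, 2 rose and 0 fell, where 9.86% of all genes rose and 13.8% fell. SPINK4 had 3.39 and 0.580 CPM in hypertonic, and 0.513 and 2.96 CPM in isotonic. MUC5B went the other way, with 0.138 and 0.406 CPM in hypertonic, and 0.304 and 0.111 CPM in isotonic. The part of this list in the AGR2 result was not tested. Markers of neurons, 9 genes, summed to 414 and 410.4 CPM in rescue, 209 and 143 CPM in hypertonic, and 145 and 213 CPM in isotonic. STMN2 was low in the same libraries as CALB1, with 3.11 and 0.135 CPM in hypertonic, and 0.114 and 3.08 CPM in isotonic. Its rescue levels of 45.6 and 45.9 CPM lay above all others. MAP2 went the other way, with 7.18 and 9.85 CPM in hypertonic, and 9.80 and 7.12 CPM in isotonic. Of the 9 neuron genes, 1 was 2-fold higher and 0 lower in number 1, and 0 higher and 2 lower in number 2. In each rescue comparison 3 of them rose and 0 fell. Markers of epithelium, 8 genes, summed to 495 and 469 CPM in rescue, 574 and 359 CPM in hypertonic, and 362 and 566 CPM in isotonic. Most of the epithelium sum was KRT8 and KRT18. CLDN4 had 9.72 to 22.4 CPM and EPCAM 3.16 to 12.6 CPM, while CDH1 was at 0.962 CPM or less and ESRP1 at 0.663 CPM or less. Of the 8 epithelium genes, 1 was 2-fold higher and 0 lower in number 1, and 0 higher and 0 lower in number 2. In rescue 3 of them rose and 0 fell against isotonic, and 2 rose and 0 fell against hypertonic. For the neuron and epithelium lists the shares over all genes are those given above for the secretory markers. The part of the neuron and epithelium lists in the CALB1 result was not tested.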

How the data were processed

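The series comprises 6 libraries of U2OS cells with GFP-DCP1A, 2 per group, made from total RNA. Per the labels' protocols, the kit depleted ribosomal RNA and digested uridine, a step that marks strand, and an Illumina HiSeq sequencer gave 100-nt reads. Bcl2fastq, Bowtie2, TopHat2 and bedtools are named, with no role or version, per the submitters' processing notes, as is GRCh38 (hg38). Which annotation was counted, and how strand was handled, is not given in the sources used here. What the authors deposited is 1 table of raw counts per library, whole numbers per gene without normalization.

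Each table held 19940 rows with 19907 distinct symbols. The 33 symbols on more than 1 row stayed separate and are not named. Coordinates came from GENCODE release 29 and promoter sequences from RefSeq (GRCh38.p14). THEMIS, AGR2, AJAP1 and AGR3 were matched there by symbol and their sequences printed.

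Groups follow the sample titles. The genes, lists and tests were chosen with earlier results of these data known. CPM is the count over the library total. Intervals at 95% are exact Poisson (1 library) or conditional binomial (ratios) and cover counting error only, and totals between 90196278 and 105991428 put the floor of 3 counts between 0.0283 and 0.0333 CPM. All 6 libraries entered one edgeR (4.0.16) quasi-likelihood fit with 1 mean for each group, filterByExpr, TMM scaling, robust dispersion and two-sided Benjamini-Hochberg adjusted p under 0.05. The biological coefficient of variation was 38.4%. Standard errors printed with edgeR changes are the absolute log2 change over the square root of the quasi-likelihood F statistic. The steps were tested on simulated data. DESeq2 (1.42.0) and limma voom (3.58.1), other scalings, no filter, a replicate block, each library left out, the compared groups alone and each replicate number alone were alternatives. Log2 ratios of single libraries used a pseudocount of 0.1 CPM.

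Besides the 4 genes, named genes were the 5 nearest profiles of each, the genes meeting the limits of 0.5 and 10 CPM, and the nearest 2 genes on each side. From each list the up to 4 with the highest mean and the up to 2 with the largest ratio in number 1 were named. BSG, ERP27, ATP2B2 and single markers of cell types were added after the values were seen.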

Additional observations from a re-analysis of the deposited data

How the results depend on the processing

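Replicate numbers did not pair the samples: deviations from the group means correlated at -0.954 between same-numbered hypertonic and isotonic libraries, at -0.027 between rescue and isotonic and at 0.040 between rescue and hypertonic. With the replicate block, 0 genes were called in each of the comparisons of rescue with isotonic, rescue with hypertonic and hypertonic with isotonic, and 0 of the 4 genes. The crossed pairing of the hypertonic and isotonic libraries, added after seeing the data, gave 21 calls (6 higher, 15 lower), none of them among the 4.

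With libraries of both replicate numbers in the fit, 0 of the 4 genes were called in any comparison by edgeR under any setting, by DESeq2 or by limma voom. The choice of genes put same-labelled libraries far apart, so 0 of 4 is no test either and shows no stability across methods. All 4 genes were called, 4 of 4, in each fit with 1 replicate number of isotonic and hypertonic. That is no test because the choice of genes used those libraries. There 14591 (number 1) and 14898 (number 2) genes were called in rescue against isotonic, 15027 and 14586 in rescue against hypertonic, and 11841 and 11776 in hypertonic against isotonic. DESeq2 called 7041, 7105 and 1 gene in these comparisons, against 4202, 4304 and 0 in edgeR. Leaving out 1 library gave between 0 and 3460 calls in rescue against isotonic, between 0 and 3691 in rescue against hypertonic, and 0 in hypertonic against isotonic.

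Signs of the fitted changes turned with the library left out. In rescue against isotonic, values ranged from -2.10 to 6.11 for CALB1, -3.34 to 6.81 for THEMIS, -3.40 to 4.67 for AGR2 and -1.77 to 5.01 for AJAP1, positive without isotonic 2 and with number 1 alone (6.11, 6.81, 4.67 and 5.01). In rescue against hypertonic they ranged from -2.14 to 5.80, -3.28 to 4.84, -3.23 to 5.37 and -1.84 to 4.04 for the same genes, positive without hypertonic 1 and with number 2 alone (5.80, 4.84, 5.36 and 4.04). With limma voom they were 2.23, 1.99, 0.85 and 1.82 against isotonic and 1.92, 0.88, 1.14 and 1.18 against hypertonic. The cause was not tested for voom; in the others the libraries left out were the high ones.

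Scaling shifted the fitted changes, though not by the same amount in every gene. The median change in rescue against isotonic was -0.02 with TMM, 0.19 with upper quartile scaling and 0.27 with library totals. That of CALB1 was -1.10, -0.88 and -0.73 in the same order. The calls split into 1749 higher and 2453 lower, 2091 and 1404, and 2050 and 1095. In rescue against hypertonic they split into 1796 and 2508, 2137 and 1448, and 2109 and 1098. TMM scaling put the rescue mean at 12.7 CPM for CALB1, 2.30 for THEMIS and 4.40 for AJAP1, and upper quartile scaling put THEMIS at 2.54. As a percent of hypertonic 1, rescue averaged 22.8% with TMM and 26.4% with upper quartile scaling for CALB1, 10.3% and 12.0% for THEMIS, 28.1% and 32.6% for AJAP1, and 10.7% with TMM for AGR2. With a pseudocount of 1 CPM, 7 related genes were 2-fold apart in number 1 and 8 in number 2, against 16 and 17. Limits of 1 and 5 CPM gave 58 genes of the same pattern, against 10. Basic transcripts in place of all, added after seeing the data, put CALB1 above AGR2 per kilobase of exons in hypertonic 1, at 18.7 and 10.1 CPM per kb against 6.93 and 7.25. Counts limit the low libraries, where THEMIS rests on 2 and 8 counts.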
